A study of Homo sapiens with 8 samples.

Results

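Connexins and pannexins are the membrane channel genes described here, namely GJA1, GJB2, GJB5, GJC1, PANX1 and PANX2, 6 of the 39533 genes in the count table. They were taken by symbol, with no threshold on a value. The set was nevertheless selected on counts of these same libraries already known, among them the levels of GJA1 in TSC and PC, so the members' levels, fold changes and calls are given as a description and support nothing. The transcriptomes come from 8 libraries of HCT116, an established human colorectal cancer line, used in a model in which circulating tumour cells return to a tumour. Tumour self-seeded cells (TSC, 3 libraries) were taken from the primary tumour, circulating tumour cells (CTC, 2 libraries) from blood and primary tumour cells (PC, 3 libraries) from the primary tumour. All groups share the line, the RNA kit and depletion of ribosomal RNA. The labels give no genotype, treatment, time or host animal, do not say how TSC were told from PC, and do not say whether replicates came from separate animals or cultures, so a p-value here covers the spread between the libraries at hand, which may be technical. The title of the series speaks of liver cancer, but the line is colorectal.

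Connexins assemble as hexamers into hemichannels, and hemichannels of adjoining cells dock to form gap junctions, through which ions, second messengers and small metabolites pass from cell to cell. Pannexins form channels of a related shape that open mainly to the outside of the cell and release ATP, a ligand of purinergic receptors. In intestinal epithelium and its tumours, connexins of the alpha and beta groups are studied for their part in contact between cells, and GJA1 (alias CX43) is the most widely expressed of them in human tissues.

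The table holds 24 genes of the family, 21 connexins and 3 pannexins. Of these, 15 had a count in some library, 9 were at 0 in all 8 libraries and 9 passed the filter on low counts, all 6 members among them. Library totals ran from 4578869 to 14717833 counts in TSC, were 957607 and 10524069 in CTC and ran from 10864761 to 19264595 in PC. Taking 3 counts as the floor, 0 counts left room for levels up to 2.99 CPM (the count divided by the TMM-scaled library size, times 1e6) in CTC replicate 1, up to 0.286 CPM in CTC replicate 2 and 0.156 to 0.668 CPM elsewhere. These floors and the intervals below cover counting error only. Of 12 markers listed for colorectal epithelium, 8, 7 and 9 were detected (a count in some library) in TSC, CTC and PC. Their summed levels were 7975 to 9240 CPM in TSC, 5147 and 7618 CPM in CTC and 5948 to 8001 CPM in PC. EPCAM, CDH1, KRT8, KRT18 and KRT19 made up nearly all of each sum. CDX2 had counts in every library and was highest in CTC replicate 2, at 33.9 CPM. CDH17 had at most 8 counts in a library, and VIL1 and CEACAM5 at most 4. KRT20, CDX1 and LGALS4 were at 0 in every library.

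The promoters of GJA1 and GJB2 are shown because GJA1 was the connexin member whose level varied most between libraries (SD of log2 CPM over the 8 libraries of 2.48, with a library at 0) and GJB2, a steadier one (0.40), has a promoter of another makeup. Each sequence is the 250 bases before the RefSeq start of the gene on GRCh38, 5′ to 3′ on the gene's strand. For GJA1 it is chr6:121435396-121435645 on the plus strand, for GJB2 chr13:20192939-20193188 on the minus strand. Capitals mark matches, on both strands, to the AP-1 motif TGANTCA, bound by FOS and JUN dimers, and to the GC box GGGCGG, bound by SP1.
GJA1: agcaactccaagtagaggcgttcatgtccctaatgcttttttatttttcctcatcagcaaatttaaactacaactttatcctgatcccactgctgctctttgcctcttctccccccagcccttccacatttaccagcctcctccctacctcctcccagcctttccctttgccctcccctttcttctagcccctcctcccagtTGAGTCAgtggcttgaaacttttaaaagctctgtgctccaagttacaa
GJB2: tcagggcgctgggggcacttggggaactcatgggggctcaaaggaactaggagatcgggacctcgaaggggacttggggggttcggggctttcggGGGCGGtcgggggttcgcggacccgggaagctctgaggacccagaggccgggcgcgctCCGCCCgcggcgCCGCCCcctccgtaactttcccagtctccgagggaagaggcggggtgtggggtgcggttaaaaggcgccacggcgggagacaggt
The GJA1 window held 1 AP-1 match, TGAGTCA, whose first base lies 48 bases before the start, no GC box and 48% G or C. The GJB2 window held 3 GC boxes, no AP-1 match and 70% G or C. Of 35116 promoter windows of this length, 6.57% held an AP-1 match and 42.6% a GC box. None of the windows of GJA1, GJB2 and PANX1, the 3 of 6 members found among these windows, held the letters TATAAA, which 10.7% of windows hold. A match describes letters, not binding.

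GJA1, the alpha connexin, stood at 41.0, 25.8 and 13.3 CPM in TSC replicates 1 to 3, at 0 and 10.2 CPM in CTC replicates 1 and 2, and at 1.59, 3.50 and 2.65 CPM in PC replicates 1 to 3. Every TSC library was above every CTC and every PC library. The means were 26.7 ± 13.9 CPM in TSC (SD, n = 3) and 2.58 ± 0.954 CPM in PC (n = 3), a 10.2-fold difference (log2 fold change 3.35 ± 0.54 SE). The PC libraries held 19, 38 and 51 counts of GJA1 and the TSC libraries 184, 365 and 147, so the low PC level rests on few reads but not on zeros. The spread within TSC was wide, with replicate 1 at 35.3 to 47.4 CPM and replicate 3 at 11.2 to 15.6 CPM (exact Poisson 95% intervals).

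GJA1 also parted the CTC libraries. In CTC replicate 2 it had 107 counts, 10.2 CPM with an interval of 8.36 to 12.3 CPM, above the highest PC library (3.50 CPM, interval 2.47 to 4.80). That interval overlaps that of TSC replicate 3. CTC replicate 1 had 0 counts, and its floor of 2.99 CPM lies above the mean of PC, so a level like that of PC was not detectable in it. Set against that floor, GJA1 was at least 13.7-fold, 8.61-fold and 4.44-fold higher in TSC replicates 1 to 3, and at least 3.41-fold higher in CTC replicate 2. In the fit over all genes, log2 fold changes were 1.5 ± 0.61 for CTC against PC and 1.85 ± 0.62 for TSC against CTC. Both values average CTC libraries that do not share a level. Without CTC replicate 1, which leaves CTC replicate 2 as the single CTC library, they were 1.98 and 1.36. Without CTC replicate 2 the CTC group is a single library at 0 counts, and the fitted values were −7.75 for CTC against PC, with the direction turned, and 11.09 for TSC against CTC; such values depend on the prior count and are no bounds.

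Fibroblasts and endothelial cells also express GJA1, so the markers fixed for these cells were read beside it. Fibroblast markers summed to 8.69, 31.4 and 112 CPM in TSC replicates 1 to 3, to 16.0 and 7.73 CPM in CTC and to 68.4, 35.3 and 29.3 CPM in PC. Of these 10 markers 6, 3 and 7 were detected in TSC, CTC and PC. COL1A1, a chain of type I collagen, made up most of the sum in all libraries but TSC replicate 1, at 4.23, 26.0 and 70.8 CPM in TSC, 16.0 and 5.25 CPM in CTC and 51.1, 32.9 and 26.9 CPM in PC, COL1A2 reached 22.2 CPM and COL3A1 17.7 CPM in TSC replicate 3, and DCN, LUM and POSTN were listed at 0 in all libraries. RPS25 and UQCRC2, which every cell uses, are also listed at 0 in all libraries, so a 0 is no sign of silence. Endothelial markers summed to 3.07 to 7.13 CPM in TSC, 5.98 and 7.06 CPM in CTC and 3.95 to 6.20 CPM in PC. Of these 10 markers, 4, 5 and 9 had a count in some library of TSC, CTC and PC, with EMCN at 0 throughout. In PC, PECAM1, CDH5, TEK, TIE1 and CLDN5 had at most 2 counts in a library. The others detected there were higher: ESAM had 40, 48 and 40 counts in PC replicates 1 to 3, VWF 9, 13 and 21, KDR 15, 0 and 12 and ERG 6, 3 and 0. ESAM was at 3.79, 4.87 and 1.90 CPM in TSC and at 3.35, 4.42 and 2.08 CPM in PC. The part of these cells in the GJA1 level was not tested. In bulk RNA, fewer cells that express a gene and less RNA per cell cannot be told apart.

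**Figure D1:**
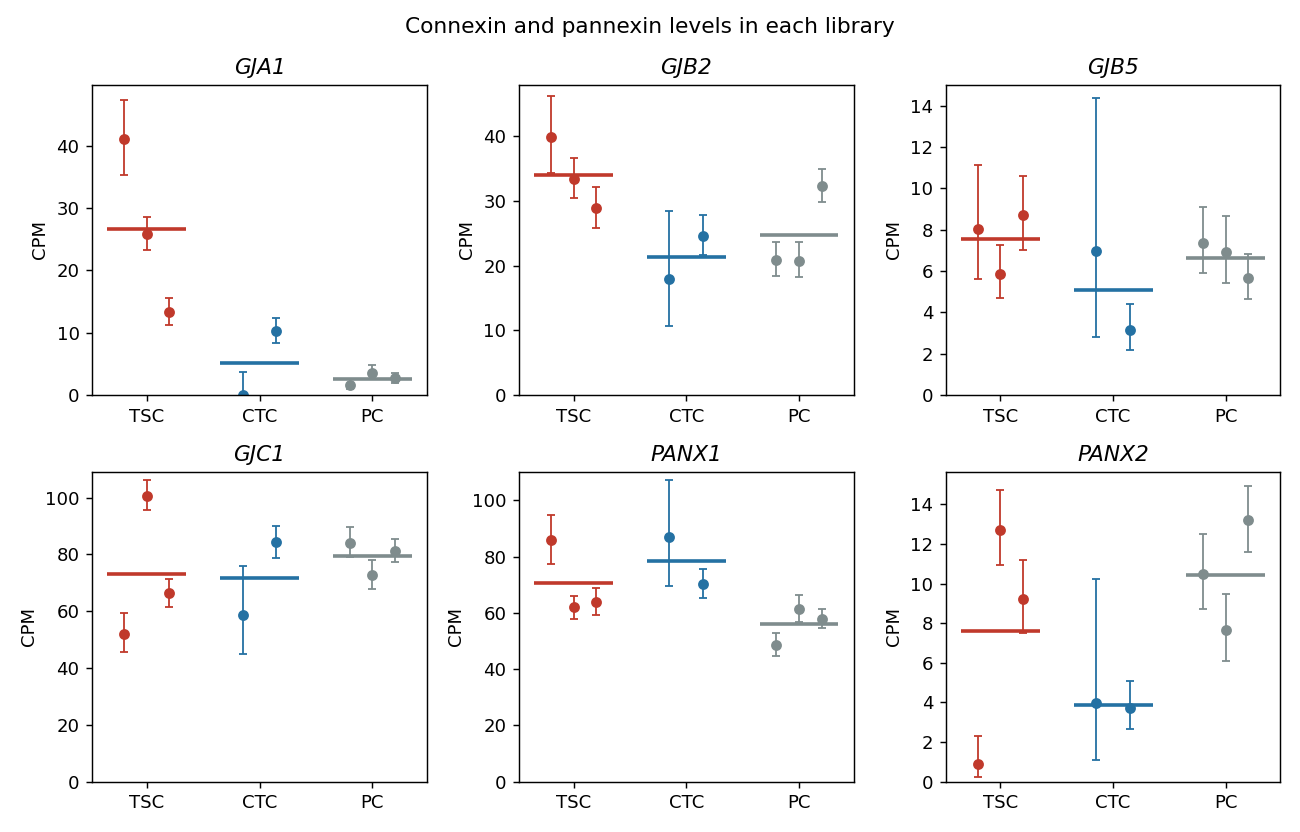
Levels of the 6 genes in CPM (y axis, from 0) in each TSC, CTC and PC library. Points are libraries, bars are exact Poisson 95% intervals of the count and horizontal lines are group means; the TSC libraries of GJA1 lie at 13.3 to 41.0 CPM and its PC libraries at 1.59 to 3.50 CPM, while PANX2 has 1 TSC library at 0.891 CPM.

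The beta connexins varied less. GJB2 (alias CX26), whose loss causes inherited deafness, was at 39.9, 33.5 and 28.9 CPM in TSC, 18.0 and 24.6 CPM in CTC and 20.9, 20.8 and 32.3 CPM in PC. TSC lay above both CTC libraries, whereas PC replicate 3 lay within the range of TSC. The log2 fold changes were 0.45 ± 0.24 for TSC against PC, −0.15 ± 0.28 for CTC against PC and 0.61 ± 0.29 for TSC against CTC. Over the alternatives the value for CTC against PC ran from −0.47 (without CTC replicate 2) to 0.11 (without PC replicate 3), so its direction turned, and that for TSC against CTC from 0.38 to 0.92. GJB5 (alias CX31.1), a connexin of stratified and placental epithelia best studied in mouse, was at 8.02, 5.86 and 8.68 CPM in TSC, 6.98 and 3.15 CPM in CTC and 7.37, 6.90 and 5.66 CPM in PC. The groups overlapped in all 3 comparisons, with log2 fold changes of 0.18 ± 0.37, −0.65 ± 0.49 and 0.82 ± 0.50 in the same order. Only 7 counts stood behind GJB5 in CTC replicate 1, with an interval of 2.81 to 14.4 CPM that covers every other library. Without CTC replicate 2 the values were 0.07 for CTC against PC, with the direction turned, and 0.10 for TSC against CTC, and without CTC replicate 1 they were −1.08 and 1.25. The value for TSC against PC ran from 0.04 to 0.33 over the alternatives.

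The gamma connexin GJC1 (alias CX45), needed for conduction in the embryonic mouse heart, was at 52.1, 101 and 66.3 CPM in TSC, 58.9 and 84.3 CPM in CTC and 84.2, 72.9 and 81.4 CPM in PC. The PC libraries sat close together (79.5 ± 5.90 CPM, SD) and the TSC libraries on both sides of them (73.0 ± 24.98 CPM). Its log2 fold changes were −0.11 ± 0.23 for TSC against PC, −0.11 ± 0.26 for CTC against PC and −0.0004 ± 0.26 for TSC against CTC. Each turned direction with 1 library left out: over the alternatives they ran from −0.43 (without TSC replicate 2) to 0.05 (without TSC replicate 1), from −0.44 (without CTC replicate 2) to 0.08 (without CTC replicate 1) and from −0.33 (without TSC replicate 2) to 0.32 (without CTC replicate 2).

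PANX1, the widely expressed ATP release channel, was at 85.8, 61.9 and 63.9 CPM in TSC, 86.8 and 70.2 CPM in CTC and 48.6, 61.4 and 57.8 CPM in PC. Every TSC and CTC library was above every PC library, by a narrow margin for TSC replicate 2 (61.9 CPM) over PC replicate 2 (61.4 CPM), whose counting intervals overlap. The log2 fold changes were 0.33 ± 0.19 for TSC against PC, 0.47 ± 0.22 for CTC against PC and −0.14 ± 0.22 for TSC against CTC. Over the alternatives they ran from 0.14 (without TSC replicate 1) to 0.41, from 0.32 to 0.67 and from −0.30 (without CTC replicate 2) to −0.001 (without CTC replicate 1). Leukocytes also express PANX1, and 9 of 12 leukocyte markers were detected in CTC, at summed levels of 410 and 156 CPM in replicates 1 and 2, against 27.0 to 52.0 CPM in TSC (8 of 12) and 15.1 to 23.6 CPM in PC (9 of 12); CD3E and NKG7 were at 0 in every library. Erythroid markers summed to 195 and 252 CPM in CTC (4 of 8), 0.0904 to 0.565 CPM in TSC (2 of 8) and 0.104 to 1.59 CPM in PC (3 of 8), with HBA2 and KLF1 among those at 0 throughout. The part of blood cells in the PANX1 level of CTC was not tested.

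PANX2, a pannexin best known from neurons and found largely on membranes inside the cell, was at 0.891, 12.7 and 9.22 CPM in TSC, 3.99 and 3.72 CPM in CTC and 10.5, 7.64 and 13.2 CPM in PC. Both CTC libraries lay below all PC libraries, and TSC replicate 1, with 4 counts, lay below all others, while TSC replicates 2 and 3 were in the range of PC. The log2 fold changes were −1.46 ± 0.73 for CTC against PC, −0.39 ± 0.53 for TSC against PC and 1.07 ± 0.73 for TSC against CTC. The CTC level rests on 4 and 39 counts, and the interval of replicate 1, 1.09 to 10.2 CPM, reaches into the range of PC. Without TSC replicate 1 the TSC against PC value was 0.04, against −0.39 with it, and the TSC against CTC value was 1.54. After thinning all libraries to the depth of the shallowest, TSC against CTC turned to −0.41 and TSC against PC was at −1.41.

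**Figure D2:**
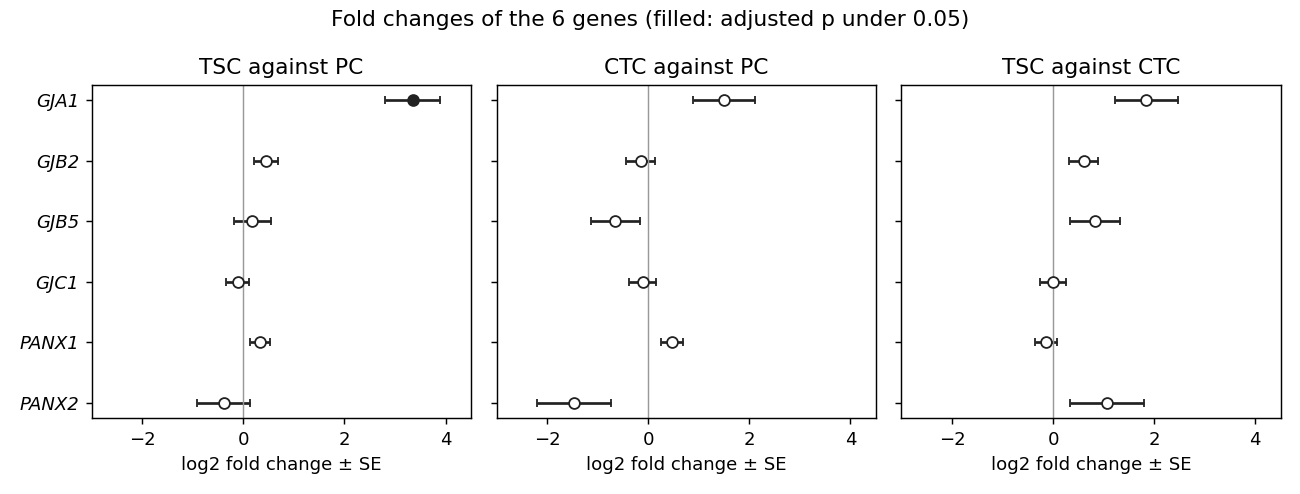
Log2 fold change ± SE (x axis) of each gene for TSC against PC, CTC against PC and TSC against CTC, from 1 edgeR fit of all genes and libraries. Filled points have an adjusted p under 0.05; GJA1 in TSC against PC, at 3.35, is the filled one.

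In TSC against PC, the quasi-likelihood test of edgeR, adjusted by Benjamini-Hochberg over all 14255 tested genes, called 1 of the 6 members, GJA1, as higher in TSC, beside 0.505% of all tested genes called in either direction. GJA1 was not called when PC replicate 1, 2 or 3 was left out, with log2 fold changes of 3.09, 3.59 and 3.37. In CTC against PC 0 of 6 were called by edgeR, beside 3.92% of all genes, with 2 members at an unadjusted p under 0.05; DESeq2 and limma-voom also called 0. The log2 value of GJA1 was 1.98 without CTC replicate 1 and turned to −7.75 without CTC replicate 2. Each of these fits leaves a single CTC library, so the values only set that library against PC. PANX2 was called lower in CTC without TSC replicate 1 (log2 −1.49). In TSC against CTC 0 of 6 were called, beside 0.898% of all genes, with 1 member at an unadjusted p under 0.05 and 0 called by DESeq2 or limma-voom. Libraries of the groups did not overlap for 2 members in each comparison: GJA1 and PANX1 in TSC against PC (18.9% of all tested genes did not overlap), PANX1 and PANX2 in CTC against PC (44.6%) and GJA1 and GJB2 in TSC against CTC (28.4%). TSC against PC and CTC against PC share the PC libraries. As the members were picked with these results known, nothing is read from the counts.

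Per exon length, the order of the 6 levels was nearly the same in each group. In CPM per kilobase of exon, PANX1 led with 25.5 ± 4.78 in TSC, 28.3 ± 4.24 in CTC and 20.2 ± 2.40 in PC (SD), and its range overlapped with no other member's. GJB2 followed with 13.4 ± 2.18 in TSC, 8.36 ± 1.85 in CTC and 9.69 ± 2.61 in PC, overlapping with GJC1 at 8.44 ± 2.88, 8.27 ± 2.08 and 9.18 ± 0.681. GJB5 stood lower, at 5.55 ± 1.09 in TSC, 3.74 ± 2.00 in CTC and 4.90 ± 0.653 in PC. GJA1 changed place most: it was between GJC1 and GJB5 in TSC (7.82 ± 4.07, overlapping both), between GJB5 and PANX2 in CTC (1.495 ± 2.11, overlapping both) and last in PC (0.755 ± 0.279, below the range of PANX2). PANX2 was at 2.45 ± 1.96 in TSC, 1.24 ± 0.0616 in CTC and 3.36 ± 0.895 in PC. The lengths are unions of all exons in GENCODE, 8.66 kb for GJC1 and 1.36 kb for GJB5, so a gene with unused exons is understated.

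Among connexin transcripts on this scale, GJA1 made up 21.4%, 12.1% and 8.10% of the summed level in TSC replicates 1 to 3, 0% and 6.0% in CTC replicates 1 and 2 and 1.24%, 2.56% and 1.54% in PC. The share was above that of every PC library in all TSC libraries and in CTC replicate 2. GJB2 held 21.1% to 27.9% in TSC, 19.5% and 19.4% in CTC and 20.4% to 25.2% in PC. GJC1 held 10.7% to 18.7% in TSC, 18.8% and 19.5% in CTC and 18.6% to 25.8% in PC. The sum over all 21 connexins was 56.1, 62.1 and 48.1 CPM per kilobase in TSC, 36.2 and 49.8 in CTC and 37.7, 40.0 and 50.4 in PC, so the groups overlapped in their total.

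**Figure D3:**
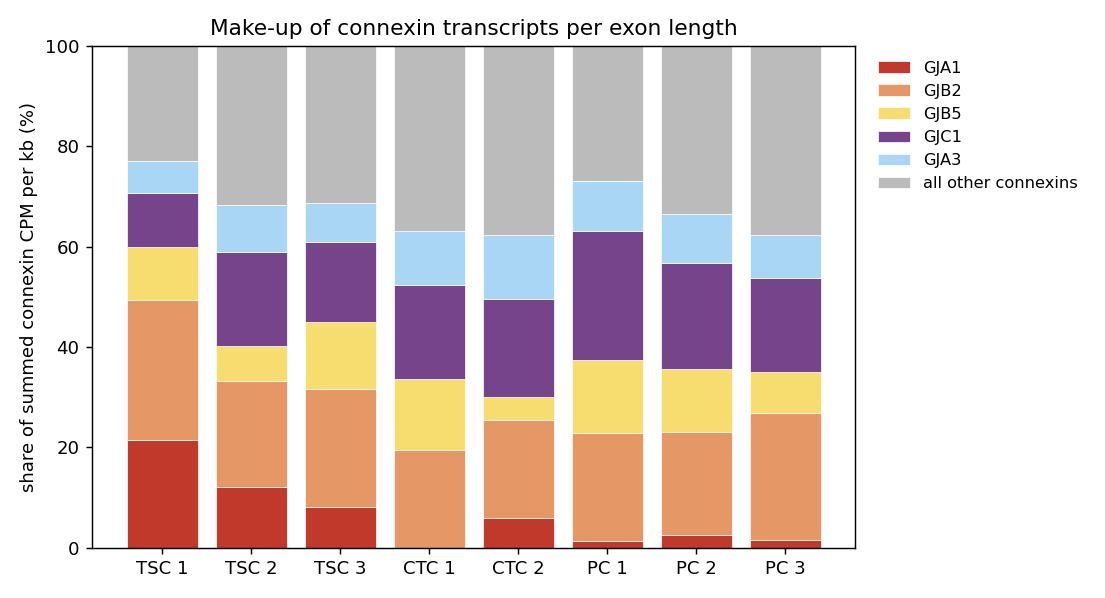
Share of each connexin in the summed connexin level (CPM per kilobase of exon, %, y axis) in each TSC, CTC and PC library (x axis). The GJA1 segment spans 8.10% to 21.4% in TSC, 0% and 6.0% in CTC and 1.24% to 2.56% in PC; grey pools the connexins not drawn singly.

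GJA1 is on chromosome 6 (121435646 to 121449727, GRCh38), GJB5 on chromosome 1 (34755047 to 34758512), GJC1 on chromosome 17 (44794104 to 44831364), PANX1 on chromosome 11 (94128841 to 94181968) and PANX2 on chromosome 22 (50170731 to 50180295). GJB2 lies on chromosome 13 (20187470 to 20192938) between GJA3 and GJB6, 3 connexin genes within 94.1 kb, and these neighbours differed widely in level. GJA3 (alias CX46), known from the lens, was at 18.7, 30.4 and 19.7 CPM in TSC, 20.0 and 33.3 CPM in CTC and 19.7, 20.2 and 22.8 CPM in PC, lower than GJB2 per kilobase in every library. Its log2 fold changes were 0.14 ± 0.25 for TSC against PC, 0.43 ± 0.29 for CTC against PC and −0.29 ± 0.29 for TSC against CTC, and it was not called by edgeR's quasi-likelihood test (smallest adjusted p = 0.391). GJB6 had counts, 4, in PC replicate 1 only. GJC3, a gamma connexin with up to 11 counts, was too low to be tested. A processed pseudogene of GJA1, GJA1P1 on chromosome 5, could take or give reads, since how reads with several positions were counted is unknown from the sources used here. GJA1P1 is not among the counted genes, so reads given to it could not be seen.

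The genes whose pattern was most like that of a member were sought among 9589 tested genes whose log2 CPM averaged 3 or more, by the root mean square difference of mean-centred log2 CPM over the 8 libraries. For GJA1 the closest was FGFBP1, which encodes a secreted carrier of fibroblast growth factors, at a difference of 1.25. FGFBP1 was at 92.5, 78.8 and 48.4 CPM in TSC, 2.99 and 92.1 CPM in CTC and 3.27, 3.22 and 4.98 CPM in PC. It shared with GJA1 the highest TSC level in replicate 1 and the lowest in replicate 3, the split of the CTC libraries and the low PC levels. Since FGFBP1 was picked for its likeness to GJA1 over the same libraries, these shared features follow from the choice. The match was loose. In CTC replicate 2 FGFBP1 was within its TSC range, while GJA1, at 10.2 CPM, was below every TSC library. The next were CRACDL (1.40), TRIM3 (1.42), OSGEP (1.44) and SIGIRR (1.49). TRIM3 and SIGIRR had 0 CPM in CTC replicate 1 like GJA1, but at 7.98 to 8.59 and 12.3 to 17.0 CPM in TSC against 4.88 to 9.30 and 9.29 to 15.0 CPM in PC they did not share its rise.

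PANX2 had closer matches, ZFHX2 at 0.12, EPPK1 at 0.25 and MAMLD1 at 0.41. ZFHX2 was at 1.34, 16.0 and 11.6 CPM in TSC, 4.99 and 4.58 CPM in CTC and 14.1, 11.1 and 20.9 CPM in PC. EPPK1, the epiplakin gene, was at 14.7, 127 and 88.5 CPM in TSC, 31.9 and 42.7 CPM in CTC and 84.2, 85.0 and 125 CPM in PC. Since these genes were picked for their likeness to PANX2 over the same libraries, their low level in TSC replicate 1 follows from the choice. For the flatter members the closest genes were SERINC5 for GJB2 (0.13), PRIM2 for GJB5 (0.13), FGFR1 for GJC1 (0.07) and USP46 for PANX1 (0.04). These measures share the libraries and their depths.

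**Figure D4:**
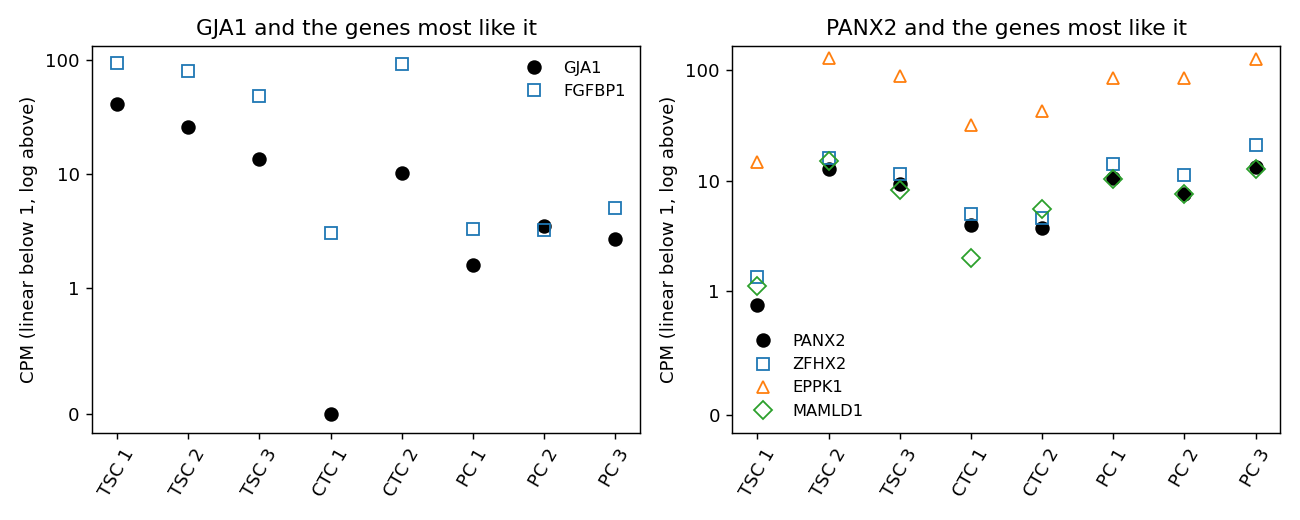
CPM (y axis, linear below 1 and log above) of GJA1 with FGFBP1 and of PANX2 with ZFHX2, EPPK1 and MAMLD1 in each TSC, CTC and PC library (x axis). GJA1 and FGFBP1 are high in TSC and in CTC replicate 2 (10.2 and 92.1 CPM) and low in CTC replicate 1 and PC; the PANX2 panel has its lowest points in TSC replicate 1.

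The wider setting was read from 100 related genes in 6 lists, of which 63 were tested and 14 had no count in any library. In TSC against PC, edgeR called 1 of 63 (1.59%, beside 0.505% of all genes). CAV1, which encodes caveolin, a membrane scaffold that binds CX43, rose to 845, 608 and 621 CPM in TSC, against 358, 381 and 382 CPM in PC (log2 0.89 ± 0.18, adjusted p = 0.0418), with no overlap. In CTC it was at 467 and 668 CPM, also above every PC library. For CTC against PC (log2 0.61 ± 0.20) edgeR did not call it (adjusted p = 0.0858), while the Wald test of DESeq2 (0.0388) and limma-voom (0.0191) did. The value for TSC against CTC was 0.28 ± 0.20 (adjusted p = 0.511 by edgeR). For TSC against PC its adjusted p ran from 0.000197 to 0.242 over 16 alternatives. There it was not called without TSC replicate 1 or 3 (adjusted p = 0.131 and 0.117) or PC replicate 1, 2 or 3 (adjusted p = 0.242, 0.205 and 0.147). In CTC against PC, 2 of 63 were called (3.17%, beside 3.92%). DBN1, whose product drebrin ties CX43 to actin, fell to 287 and 309 CPM in CTC, against 511, 523 and 521 CPM in PC (log2 −0.79 ± 0.19, adjusted p = 0.0325, range over alternatives 0.00159 to 0.209). FOS, a subunit of AP-1, fell to 261 and 44.7 CPM in CTC, against 447, 697 and 640 CPM in PC (log2 −2.05 ± 0.54, adjusted p = 0.0490, range over alternatives 4.7e-18 to 0.273). Both calls were lost without CTC replicate 2 (adjusted p = 0.209 and 0.273) and without PC replicate 1 (0.0912 and 0.0805), 2 (0.100 and 0.114) or 3 (0.101 and 0.125), that of DBN1 also without CTC replicate 1 (0.0883) and that of FOS without TSC replicate 3 (0.0835). The call of FOS was also lost with DESeq2 size factors (0.0514), a stricter filter (0.0610) and the Wald test of DESeq2 (0.0978), that of DBN1 after thinning to the shallowest library (0.0700), and both with the replicate block (0.0804 for DBN1 and 0.0987 for FOS). Of 16 alternatives, 9 called DBN1 and 7 called FOS. FOS was at −3.74 without CTC replicate 1 and −1.19 without CTC replicate 2. Its lowest adjusted p, 4.7e-18, came from edgeR with no filter on low counts. There the log2 value was −2.10 with an SE of 0.22, against 0.54 with the filter. In TSC against CTC edgeR called 0 of 63, with 12 at an unadjusted p under 0.05. DESeq2 called 0, beside 390 of all 14255 genes, and limma-voom 2, beside 440. The share of all genes at an unadjusted p under 0.05 was not counted. Nothing is therefore read from this count or from those of the lists below.

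The list of connexin partners, with kinases, trafficking and turnover factors, had 24 of 25 genes tested, with a median log2 fold change of 0.08 in TSC against PC (0.006 over all tested genes), −0.09 in CTC against PC (−0.04) and 0.27 in TSC against CTC (0.06). The following genes were picked for their role after their values were seen. TJP1, the scaffold ZO-1 at the rim of gap junctions, was at 4.23 to 5.61 CPM in TSC, 4.99 and 5.44 CPM in CTC and 3.12 to 5.11 CPM in PC. PCDH7, a protocadherin that promotes CX43 junctions between carcinoma cells and astrocytes, was at 137 to 185 CPM in TSC, 238 and 159 CPM in CTC and 191 to 215 CPM in PC (TSC against PC log2 −0.34 ± 0.18, adjusted p = 0.561). Of the 8 transcription factors reported at connexin promoters, 7 were tested, with medians of −0.17, −0.32 and 0.23 in the same order. FOS was at 145, 315 and 309 CPM in TSC, below all PC libraries but not called by edgeR (log2 −1.21 ± 0.44, adjusted p = 0.363). It was called lower in TSC by limma-voom (log2 −1.07, adjusted p = 0.0460) and by edgeR with no filter on low counts (log2 −1.24, adjusted p = 5.5e-09). With no filter the SE fell to 0.18 while the log2 value hardly moved. That fit called 355 of 22986 genes, against 72 of 14255 with the filter. JUN, the partner of FOS, was at 282 to 429 CPM in TSC, 437 and 320 CPM in CTC and 372 to 526 CPM in PC.

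Genes of ATP release and purinergic signalling, downstream of pannexin channels, had 16 of 29 tested, 0 called by edgeR in each comparison (1, 1 and 3 at an unadjusted p under 0.05) and medians of 0.13, 0.11 and 0.005; limma-voom called SLC29A1 in TSC against PC and ENTPD1 in CTC against PC, and DESeq2 called 0 in each. SLC29A1, an equilibrative nucleoside transporter gene, was at 88.0, 81.4 and 82.9 CPM in TSC, 43.9 and 67.5 CPM in CTC and 57.0, 52.3 and 50.9 CPM in PC (TSC against PC log2 0.66 ± 0.18, adjusted p = 0.171). The other large-pore channels had 8 of 12 tested and medians of 0.07, −0.01 and 0.21; LRRC8A, the required subunit of the volume-regulated anion channel, was at 65.7 to 84.3 CPM in TSC, 51.9 and 59.8 CPM in CTC and 68.5 to 78.6 CPM in PC. Genes of cGAMP, a messenger that passes through gap junctions, had 5 of 8 tested and medians of −0.008, −0.13 and 0.38. CGAS, its synthase gene, was listed at 0 in all libraries, and STING1, its receptor gene, was at 0 in all but PC replicate 1. edgeR called 0 genes of these last 2 lists, with 1 each at an unadjusted p under 0.05 in TSC against PC, 2 each in CTC against PC and 0 and 3 in TSC against CTC; limma-voom called SLC19A1 in TSC against PC and both it and DESeq2 called ENPP1 in CTC against PC.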

How the data were processed

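RNA-seq counts of 8 HCT116 libraries were used. The deposited table holds raw counts per gene; the submitters' processing notes name STAR 2.5.3a, featureCounts 1.5.3 and hg38. Annotation, strand setting, handling of multi-position reads and any removal of host reads: not given in the sources used here. Under R 4.3.3, edgeR 4.0.16 tested the counts by glmQLFit and glmQLFTest after filterByExpr by group and TMM scaling, in 1 fit of all 8 libraries. A call is an adjusted p (Benjamini-Hochberg, 14255 genes) under 0.05. The SE is the log2 fold change divided by the square root of F. CPM uses totals of tested genes times TMM factors. DESeq2 1.42.0 and limma 3.58.1 served as alternatives. Scripts were tested on simulated counts. Of 28 library pairs, 0 agreed within sampling noise. Positions and promoters are from RefSeq (GRCh38.p14, the build of hg38), exon lengths from GENCODE. All listed genes matched by symbol.

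Members and lists were chosen with earlier results of these data known. Named genes (some are not reported here) are the members, related genes called in any comparison, other family genes with at least 10 counts in a library, the 3 genes most like each member (5 for GJA1) and a few picked for their role after their values were seen.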

Additional observations from a re-analysis of the deposited data

How the results depend on the processing

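Direction held for GJA1 in TSC against PC under all 16 alternatives, with log2 fold changes from 2.79 to 4.04, and GJA1 was called in 13. The number of members called was 0 to 1 in TSC against PC and 0 to 1 in CTC against PC with 1 library left out at a time, and 0 throughout in TSC against CTC. With no filter on low counts it was 2 in CTC against PC (GJA1 higher, PANX2 lower) and 1 in TSC against CTC (GJA1 higher). Related genes called in TSC against PC were 2 with no filter, 4 by limma-voom and 0 to 1 with 1 library left out, against 1 as reported. In CTC against PC they were 1 with DESeq2 size factors, 1 with a stricter filter, 1 after thinning, 4 with no filter, 4 by DESeq2 (FOS not among them), 4 with only the libraries of these 2 groups, 6 by limma-voom and 0 to 6 with 1 library left out, against 2. In TSC against CTC they were 1 with no filter, 2 by limma-voom and 0 to 2 with 1 library left out, against 0. Calls over all tested genes moved too, so these counts are not read as a trait of the lists. In TSC against PC, CTC against PC and TSC against CTC they were 72, 559 and 128 of 14255 as reported. With no filter they were 355, 1535 and 728 of 22986. By DESeq2 they were 191, 1125 and 390 and by limma-voom 553, 1660 and 440 of 14255. With only the libraries of the 2 groups, 1409 of 13838 were called in CTC against PC. Members that were not called turned direction in some fits. With all libraries kept, GJC1 in TSC against CTC (−0.0004) was at 0.0157 with no filter, 0.0341 with the replicate block and 0.12 after thinning, PANX2 in TSC against CTC (1.07) at −0.41 after thinning and GJB2 in CTC against PC (−0.15) at 0.0623 by limma-voom. With 1 library left out, ranges that cross 0 were −7.75 to 1.98 for GJA1, −0.47 to 0.11 for GJB2, −1.08 to 0.0672 for GJB5 and −0.44 to 0.0807 for GJC1 in CTC against PC, −0.43 to 0.0473 for GJC1 and −0.95 to 0.0434 for PANX2 in TSC against PC, and −0.33 to 0.32 for GJC1 in TSC against CTC. The cause of these moves was not tested.

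The replicate block gave 0 related genes called in TSC against PC and 0 in CTC against PC, with adjusted p = 0.0606 for CAV1, 0.0804 for DBN1 and 0.0987 for FOS, while GJA1 stayed called at 3.30. Deviations from the group means of TSC and PC libraries with the same number correlated at 0.03, −0.13 and 0.09. Deviations within a group sum to 0, so with this few libraries such values can hardly show pairing or its absence. The labels do not say whether these samples share an animal or a culture. Not every library correlated best with its own number. Depth limits CTC replicate 1, where a gene under 2.99 CPM may have no count.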
